A study of Mus musculus with 6 samples.

Results

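This account covers the glucocorticoid receptor and a small set of genes around it in white adipose tissues (WATs): the 2 corticosteroid receptor genes Nr3c1 and Nr3c2, the hormone-activating enzyme gene Hsd11b1, and the target genes Fkbp5, Tsc22d3, Sgk1, Zbtb16, Errfi1 and Lcn2. These 9 genes were taken by symbol from a table of 21456 genes as a gauge of stress hormone action at the time of tissue collection, and all 9 were found and passed the filter on low values. The study asked how Ntsr2, a receptor for the peptide neurotensin, acts in white adipocytes. Its RNA-seq libraries came from the adipose tissue of 3 control mice, which carried the floxed Ntsr2 alleles without Cre, and of 3 Ntsr2 AKO mice, which carried the same floxed alleles together with Adipoq-Cre, all fed by a chow diet. The Adipoq promoter drives Cre in adipocytes of brown as well as white fat, the fat depot, sex and age of these mice were not stated for the sequencing, and other cells of the tissue kept the gene. The mice are called control 3, 4 and 5 and Ntsr2 AKO 3, 4 and 5, after the numbers in the sample labels. Nothing states that the mice came from separate litters, so the p-values below measure only the spread between these samples.

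In mice the adrenal hormone corticosterone enters cells and binds the glucocorticoid receptor, encoded by Nr3c1, which is held ready in the cytoplasm by heat shock chaperones and then moves to the nucleus to switch genes on or off. The mineralocorticoid receptor, encoded by Nr3c2, binds the same hormone with higher affinity. In fat, 11beta-hydroxysteroid dehydrogenase type 1, encoded by Hsd11b1, regenerates active hormone from its inert 11-keto form, and glucocorticoids there influence fat cell differentiation, lipid storage and lipolysis.

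Levels are given as normalized counts, that is, reads per gene after division by a size factor for each library, which did not make the library totals equal. The log2 fold change is Ntsr2 AKO minus control on the log2(normalized count + 1) scale. The recovered library totals were 60405373 to 66098226 reads in the controls against 54085088 to 56268725 reads in Ntsr2 AKO mice. Ntsr2 itself stood at 83.8, 64.0 and 152.5 in control 3, 4 and 5 and at 3.10, 8.29 and 0 in Ntsr2 AKO 3, 4 and 5, so the groups matched their labels. Adipocyte markers were abundant in every mouse, with a summed level of 1160470 to 1694710 for the 7 genes of that list in the controls against 1437850 to 1676000 in Ntsr2 AKO mice. The 4 brown adipocyte markers, nearly all of whose level came from Cidea, summed to 2266 to 4305 in the controls and 4709 to 6596 in the knockout without overlap, while Ucp1 was at no more than 55.7 in any mouse and overlapped; their part in the results below was not tested. The 3 libraries control 5, Ntsr2 AKO 4 and Ntsr2 AKO 5 also carried skeletal muscle transcripts: the 9 muscle markers took 3.88%, 0.141% and 0.303% of their reads, against 0.00063% to 0.0025% in the other 3 mice. The list medians and many of the single genes are also given without these 3 mice, a setting chosen after the data were seen that leaves control 3 and 4 against Ntsr2 AKO 3 alone, whose spread is assumed to be like that of the others.

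Across the 9 genes, none passed an adjusted p of 0.05 by limma, edgeR or DESeq2. In the table as a whole, limma called 1 of 16157 genes tested (0.00619%) and DESeq2 called 219 (1.36%). At an unadjusted limma p under 0.05, Sgk1, Errfi1 and Lcn2 made up 3 of the 9 genes with lower levels in the knockout and 0 were higher, where 5.27% of all genes tested were lower and 3.08% higher. That background of 852 lower and 497 higher genes became 612 and 633 under quantile normalization, which moved the median of all genes from -0.01 to 0.05 on the log2 scale. For 2 of the 9 genes, Sgk1 and Lcn2, every Ntsr2 AKO mouse lay below every control mouse, against 8.16% of all genes, and for 0 of the 9 did every Ntsr2 AKO mouse lie above, against 6.82%. The median log2 fold change of the 9 genes was -0.36 with 7 of 9 lower, beside a median of -0.01 and 51.0% lower over all genes tested. Without Ntsr2 AKO 5 the median of the 9 genes was -0.21 with 6 of 9 lower, and without the 3 mice with muscle transcripts it was -0.16 with 5 of 9 lower. With all 6 mice the 2 genes on the other side of zero were Nr3c2 and Hsd11b1. Without the 3 mice with muscle transcripts Nr3c1 (0.18) and Zbtb16 (0.051) were above zero too.

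**Figure D1:**
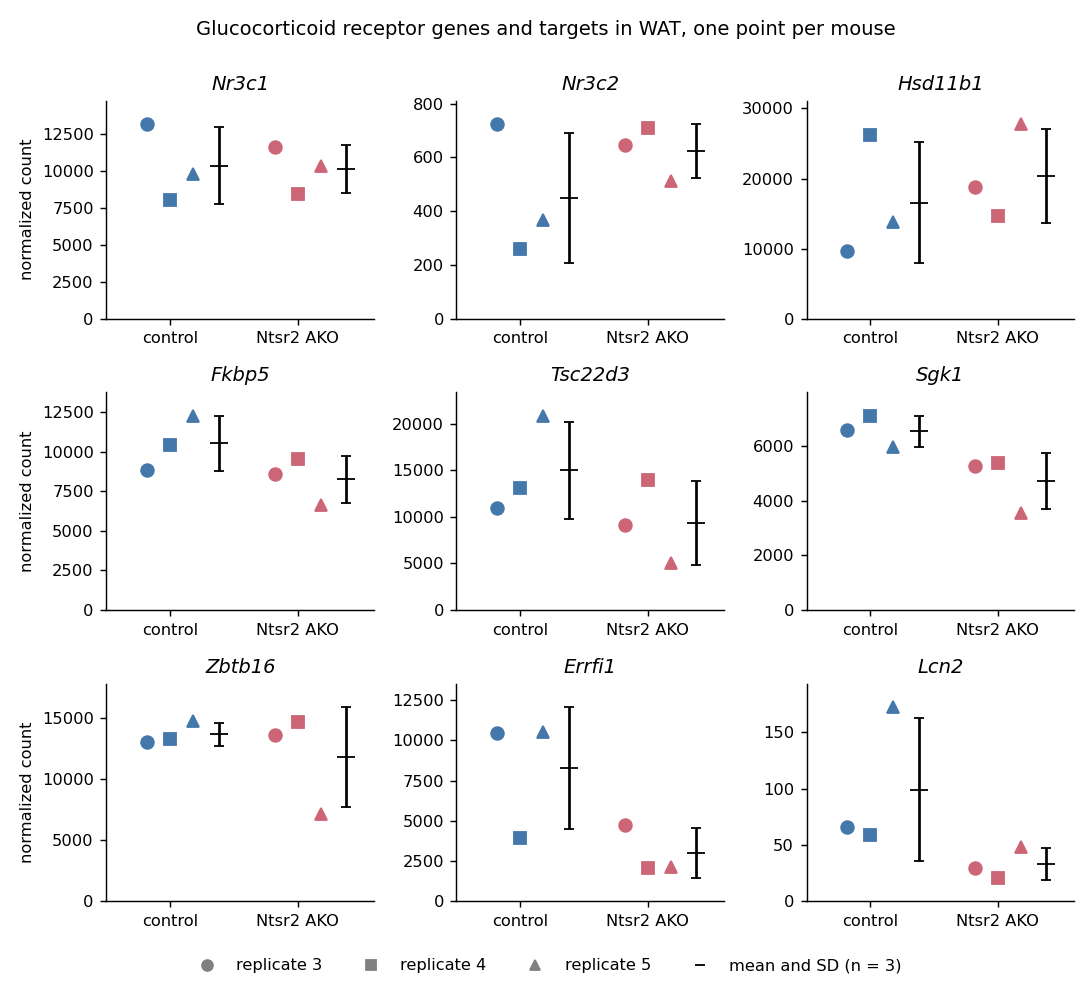
Normalized counts of the 9 genes (vertical axis, from 0) in each control and Ntsr2 AKO mouse (points, with the symbol giving the replicate number) and the group mean and SD (black, n = 3). The Sgk1 and Lcn2 points of the Ntsr2 AKO mice sit below all control points, and Ntsr2 AKO 5 is the lowest point for Fkbp5, Tsc22d3, Sgk1 and Zbtb16.

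The receptor Nr3c1 had nearly the same mean level in both genotypes. It stood at 13140, 8022 and 9794 in control 3, 4 and 5 and at 11609, 8428 and 10289 in Ntsr2 AKO 3, 4 and 5. The highest and the lowest values both belonged to control mice, so the Ntsr2 AKO mice lay inside the control range. The means were 10319 ± 2599 in the controls against 10108 ± 1598 in Ntsr2 AKO mice (SD, n = 3 each). The log2 fold change was -0.01 (SE 0.21, limma adjusted p = 0.990), with a 95% interval from -0.52 to 0.49, and its sign turned under 4 of the alternative settings given in the closing part.

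Nr3c2, located at chr8:76899442-77245012 on the plus strand (GRCm38), was the scarcer receptor. Its counts were 723, 258 and 365 in control 3, 4 and 5 and 645, 711 and 513 in Ntsr2 AKO 3, 4 and 5. Control 3 was the highest mouse of all, while the other two control mice were the lowest, so the groups overlapped through 1 control mouse. The means were 449 ± 244 and 623 ± 101 (SD, n = 3 each), and the log2 fold change was 0.59 (SE 0.38, adjusted p = 0.689, 95% interval -0.30 to 1.49). It ranged from 0.26 without control 4 (unadjusted p = 0.461) to 1.01 without control 3 (unadjusted p = 0.00776).

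Both receptors bind corticosterone, so their ratio within a mouse is a measure that does not depend on library scaling. Per kilobase of exon, Nr3c1 was 15.3, 26.2 and 22.6 times as abundant as Nr3c2 in control 3, 4 and 5 and 15.2, 9.99 and 16.9 times in Ntsr2 AKO 3, 4 and 5. The log2 ratio of the counts was 4.63 ± 0.40 in the controls against 4.02 ± 0.40 in Ntsr2 AKO mice (SD, n = 3 each). The difference of -0.61 gave p = 0.20 in a two-sided exact permutation test, where 3 mice against 3 cannot go below 0.10. Ntsr2 AKO 4 had the lowest ratio, and control 3 lay at the level of Ntsr2 AKO 3.

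Hsd11b1, located at chr1:193221634-193264075 on the minus strand, was the most abundant of the 9 genes per kilobase in both groups, with a mean of 3887 normalized counts per kilobase in the controls against 4803 in Ntsr2 AKO mice. Its counts were 9628, 26193 and 13746 in control 3, 4 and 5 and 18859, 14625 and 27767 in Ntsr2 AKO 3, 4 and 5. Each group held 1 mouse near the top of the range, control 4 and Ntsr2 AKO 5, and the groups overlapped throughout. The log2 fold change was 0.38 (SE 0.40, adjusted p = 0.802, 95% interval -0.56 to 1.33), and it ranged from 0.05 without control 3 to 0.78 without control 4.

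The reductase activity of this enzyme depends on NADPH that H6pd, the hexose-6-phosphate dehydrogenase of the endoplasmic reticulum, supplies. H6pd counts were 36252, 21319 and 27530 in control 3, 4 and 5 and 23290, 13102 and 11654 in Ntsr2 AKO 3, 4 and 5. The Ntsr2 AKO mice lay mostly below, but Ntsr2 AKO 3 exceeded control 4. The log2 fold change was -0.86 (SE 0.31, unadjusted p = 0.0280, adjusted p = 0.565). H6pd was the only 1 of the 11 tested genes of hormone supply and clearance with an unadjusted p under 0.05, where 5.27% of all genes tested were lower. Without the 3 mice with muscle transcripts the H6pd log2 fold change was -0.26. Hsd11b2, the enzyme that inactivates the hormone, was scarce, at no more than 76.3 in any control and 161 in any Ntsr2 AKO mouse (log2 fold change 1.37, SE 0.81, adjusted p = 0.678). Of that list 5 genes were lower and 6 higher, with a median of 0.03, which was -0.04 without the 3 mice with muscle transcripts. Srd5a1, a steroid 5alpha-reductase, was at 0.65 (adjusted p = 0.710) and Abcb1b, an export pump that carries steroids, at -0.24 (adjusted p = 0.748).

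The promoters of 3 target genes are shown because Sgk1 holds the full letters of the receptor's binding element, Tsc22d3 holds one arm of it and Errfi1 holds another element. The windows are RefSeq promoters on GRCm38.p6, 250 bases before to 50 bases after an annotated start, 5′ to 3′ on the strand of the gene. Promoters were found for 7 of the 9 genes, in 15 windows. The full element searched was AGAACA, 3 bases of any kind and then TGTTCT, which reads the same on both strands, and it was present in 3 of 32851 promoter windows of this length (0.00913%). A looser form of the same element (GNACA, 3 bases of any kind and then TGTNC, where N is any base) was in 156 windows (0.475%), and one arm of it alone, AGAACA or its complement TGTTCT, in 19.0%, including those that hold the full element. The cAMP response element TGACGTCA, which also reads the same on both strands, was in 588 windows (1.79%). All 4 motifs were chosen after the expression values had been seen. Capitals mark the full element in the Sgk1 window (chr10:21993640-21993939, plus strand, 1 of 6 annotated starts), a lone arm in the Tsc22d3 window (chrX:140600473-140600772, minus strand, 1 of 3 starts) and the cAMP response element in the Errfi1 window (chr4:150854820-150855119, plus strand, 1 of 2 starts).
Sgk1: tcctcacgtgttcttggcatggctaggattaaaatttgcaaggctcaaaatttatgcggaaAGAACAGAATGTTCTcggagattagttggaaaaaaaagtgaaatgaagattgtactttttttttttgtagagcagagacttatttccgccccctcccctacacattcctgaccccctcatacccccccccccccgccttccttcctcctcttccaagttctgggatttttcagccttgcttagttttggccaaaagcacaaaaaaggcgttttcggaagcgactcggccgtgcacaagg
Tsc22d3: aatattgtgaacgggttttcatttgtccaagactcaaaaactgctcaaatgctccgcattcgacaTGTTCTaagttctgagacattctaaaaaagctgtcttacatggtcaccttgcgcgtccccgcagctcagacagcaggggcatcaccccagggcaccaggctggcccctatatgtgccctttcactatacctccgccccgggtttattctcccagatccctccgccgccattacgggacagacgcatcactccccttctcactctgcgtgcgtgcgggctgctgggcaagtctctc
Errfi1: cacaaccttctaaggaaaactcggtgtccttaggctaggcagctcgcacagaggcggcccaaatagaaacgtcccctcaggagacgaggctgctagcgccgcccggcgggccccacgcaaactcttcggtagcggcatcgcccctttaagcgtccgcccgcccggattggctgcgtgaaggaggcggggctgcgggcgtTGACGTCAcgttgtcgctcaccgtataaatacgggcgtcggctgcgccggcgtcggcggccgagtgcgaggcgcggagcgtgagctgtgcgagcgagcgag
The Sgk1 element begins 189 bases before the start, the Tsc22d3 arm 185 bases before and the Errfi1 element 51 bases before. An arm was in 4 of the 15 windows, all of Sgk1 or Tsc22d3, beside 19.0% of all windows, and the Sgk1 window shown holds a further arm that is not marked. These are matches of letters, not tests of binding, and none of the other windows held the full or the looser element.

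Sgk1, a kinase gene induced by glucocorticoids and mineralocorticoids that lies at chr10:21882184-21999903 on the plus strand, was lower in every Ntsr2 AKO mouse than in any control mouse. Its counts were 6587, 7093 and 5956 in control 3, 4 and 5 and 5269, 5374 and 3533 in Ntsr2 AKO 3, 4 and 5. The gap between the groups was narrow apart from Ntsr2 AKO 5, which stood well below the other two Ntsr2 AKO mice. The means were 6545 ± 569 and 4726 ± 1034 (SD, n = 3 each), with a log2 fold change of -0.49 (SE 0.19, unadjusted p = 0.0342, adjusted p = 0.567, DESeq2 adjusted p = 0.375). Without Ntsr2 AKO 5 the log2 fold change was -0.29, and without the 3 mice with muscle transcripts it was -0.38.

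Fkbp5, at chr17:28399094-28517527 on the minus strand, encodes a co-chaperone that lowers the affinity of the receptor for its hormone and is among the most used readouts of receptor activity. Its counts were 8870, 10434 and 12300 in control 3, 4 and 5 and 8601, 9537 and 6626 in Ntsr2 AKO 3, 4 and 5. Control 3 lay below Ntsr2 AKO 4, so the groups overlapped, and control 5 and Ntsr2 AKO 5 formed the ends of the range. The means were 10535 ± 1717 and 8255 ± 1486 (SD, n = 3 each), and the log2 fold change was -0.36 (SE 0.19, adjusted p = 0.638, 95% interval -0.80 to 0.09). It was -0.21 without Ntsr2 AKO 5, -0.24 without control 5 and -0.16 without the 3 mice with muscle transcripts.

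Tsc22d3, which lies at chrX:140539528-140600659 on the minus strand, encodes GILZ, an anti-inflammatory protein induced by the receptor. Its counts were 10985, 13063 and 20862 in control 3, 4 and 5 and 9078, 13931 and 4990 in Ntsr2 AKO 3, 4 and 5. As for Fkbp5, control 5 was the highest mouse and Ntsr2 AKO 5 the lowest, and Ntsr2 AKO 4 exceeded 2 of the control mice. The log2 fold change was -0.75 (SE 0.40, adjusted p = 0.643, 95% interval -1.71 to 0.21). It was -0.36 without Ntsr2 AKO 5, -0.48 without control 5 and -1.10 without Ntsr2 AKO 4 (unadjusted p = 0.0254), and -0.40 without the 3 mice with muscle transcripts, so single mice moved it over a wide range.

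Zbtb16, at chr9:48654297-48836222 on the minus strand, encodes the transcription factor PLZF, a strongly hormone-induced gene in many tissues. Its counts were 13050, 13264 and 14774 in control 3, 4 and 5 and 13631, 14714 and 7130 in Ntsr2 AKO 3, 4 and 5. The other 5 mice lay close together, and Ntsr2 AKO 5 stood alone below them. The log2 fold change was -0.28 (SE 0.28, adjusted p = 0.794, 95% interval -0.93 to 0.38), and it was 0.051 both without Ntsr2 AKO 5 and without the 3 mice with muscle transcripts.

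Of the 6 target genes, Fkbp5, Tsc22d3, Sgk1 and Zbtb16 had their lowest level in Ntsr2 AKO 5, and Errfi1 and Lcn2, described below, in Ntsr2 AKO 4. Over all genes tested, 20.9% were lowest in Ntsr2 AKO 5 and 16.0% in Ntsr2 AKO 4. Over the 6 mice the Pearson r of the log2 levels was 0.98 between Fkbp5 and Tsc22d3, 0.83 between Fkbp5 and Zbtb16 and 0.77 between Fkbp5 and Sgk1. It was 0.55 between Fkbp5 and Errfi1, 0.51 between Fkbp5 and Lcn2 and 0.06 between Zbtb16 and Lcn2. Nr3c1 had r = -0.36 with Fkbp5 and -0.32 with Tsc22d3. These values describe 6 libraries that share 2 genotypes and single extreme mice, and no p is given. Ntsr2 AKO 5 also differed from the other mice in its tissue markers: the summed level of 6 fibroblast and progenitor markers was 506743 in it and 159391 to 291849 in the others. The part of this difference in the low target levels was not tested.

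**Figure D2:**
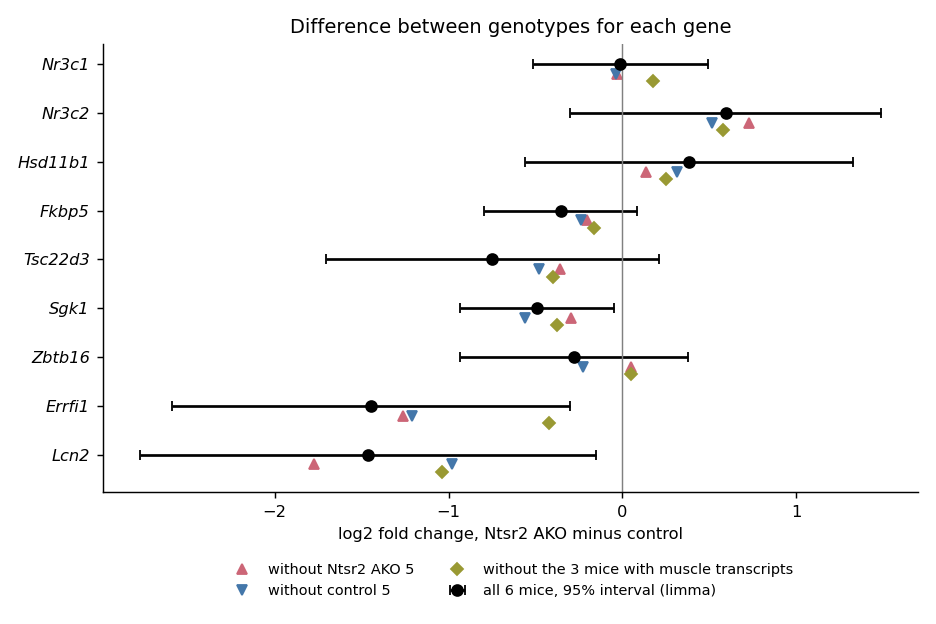
Log2 fold change of each gene (horizontal axis, Ntsr2 AKO minus control) with its 95% limma interval for all 6 mice (black) and the value without Ntsr2 AKO 5 (red), without control 5 (blue) and without the 3 mice with muscle transcripts (olive). The Zbtb16 value crosses zero to 0.051 without Ntsr2 AKO 5, and the Errfi1 value moves from -1.45 to -0.42 without the 3 mice.

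Errfi1, which lies at chr4:150853919-150868892 on the plus strand, encodes MIG6, a feedback inhibitor of the epidermal growth factor receptor that responds to glucocorticoids and to growth factors. It had one of the widest differences of the 9 genes. Its counts were 10438, 3911 and 10515 in control 3, 4 and 5 and 4774, 2069 and 2140 in Ntsr2 AKO 3, 4 and 5. Control 4 lay inside the range of the Ntsr2 AKO mice, so the groups overlapped through this mouse. The means were 8288 ± 3791 and 2994 ± 1542 (SD, n = 3 each), and the log2 fold change was -1.45 (SE 0.48, unadjusted p = 0.0203, adjusted p = 0.557, DESeq2 adjusted p = 0.0680). It was -1.92 without control 4 and -0.42 without the 3 mice with muscle transcripts (unadjusted p = 0.533). Both low Ntsr2 AKO mice and 1 of the high control mice were among those 3.

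Errfi1 is also an early-response gene of growth factor signalling, and the immediate early genes were lower beside it. Of all genes tested, 51.0% were lower in Ntsr2 AKO mice, 5.27% lower at an unadjusted p under 0.05 and 8.16% lower without overlap. All 13 of the immediate early list were lower, 10 of 13 at that p and 10 of 13 without overlap, with a median log2 fold change of -1.28. The 1 gene that passed the adjusted threshold in the whole table, Egr1, belonged to it: 2411, 2020 and 2627 in control 3, 4 and 5 and 513, 407 and 507 in Ntsr2 AKO 3, 4 and 5 (log2 fold change -2.30, SE 0.16, adjusted p = 0.0442). Fos was at -1.92 (adjusted p = 0.160), Junb at -2.40 (adjusted p = 0.499; -1.38 without the 3 mice with muscle transcripts) and Ier3 at -1.28 (adjusted p = 0.522). DESeq2 called 5 of the 13, beside 1.36% of all genes tested, and edgeR 0. Without the 3 mice with muscle transcripts 11 of 13 were lower, 4 at an unadjusted p under 0.05, with a median of -0.83. The part of the immediate early genes in the Errfi1 and Sgk1 values was not tested.

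Lcn2, at chr2:32384633-32388252 on the minus strand, encodes lipocalin 2, an iron-scavenging protein of adipocytes and neutrophils that responds to glucocorticoids and to inflammation. It was the scarcest of the 9 genes per kilobase and was lower in every Ntsr2 AKO mouse. Its counts were 66.3, 58.8 and 173 in control 3, 4 and 5 and 29.9, 20.7 and 48.6 in Ntsr2 AKO 3, 4 and 5. Control 5 stood far above the other mice, and the groups were separated by the gap between Ntsr2 AKO 5 and control 4. The means were 99.2 ± 63.7 and 33.1 ± 14.2 (SD, n = 3 each), and the log2 fold change was -1.46 (SE 0.55, unadjusted p = 0.0338, adjusted p = 0.565, DESeq2 adjusted p = 0.274). It was -0.98 without control 5, -1.78 without Ntsr2 AKO 5 and -1.04 without the 3 mice with muscle transcripts.

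Neutrophil transcripts shared their highest and lowest mouse with Lcn2, but not the order of the mice between them. The summed level of 7 neutrophil markers was 464 to 845 in the controls against 140 to 549 in Ntsr2 AKO mice, with the highest sum in control 5 and the lowest in Ntsr2 AKO 4. These sums overlapped: Ntsr2 AKO 5, at 549, lay above control 3 (464) and control 4 (541), while its Lcn2 level was below that of every control. Each of the 4 markers that passed the filter had a negative log2 fold change, beside 51.0% of all genes tested. Of these 4, 2 were lower without overlap, beside 8.16% of all genes tested, and 0 had an unadjusted limma p under 0.05. Among the 4 was S100a8, at 52.6 to 114 in the controls against 19.6 to 50.6 in Ntsr2 AKO mice (log2 fold change -1.27, adjusted p = 0.594). Ngp, Camp and Ltf were at 0 in some mice. Of the 7 markers, 1 was at 0 in all Ntsr2 AKO mice, and none was at 0 in all controls. In bulk tissue, fewer cells of a type and less RNA per cell cannot be told apart, and the part of neutrophils in the Lcn2 difference was not tested. The 5 macrophage markers found in the table also all had a negative log2 fold change, 0 of 5 without overlap and 0 of 5 at an unadjusted limma p under 0.05. Their sums overlapped, at 18028 to 43456 in the controls against 18259 to 34300 in Ntsr2 AKO mice.

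**Figure D3:**
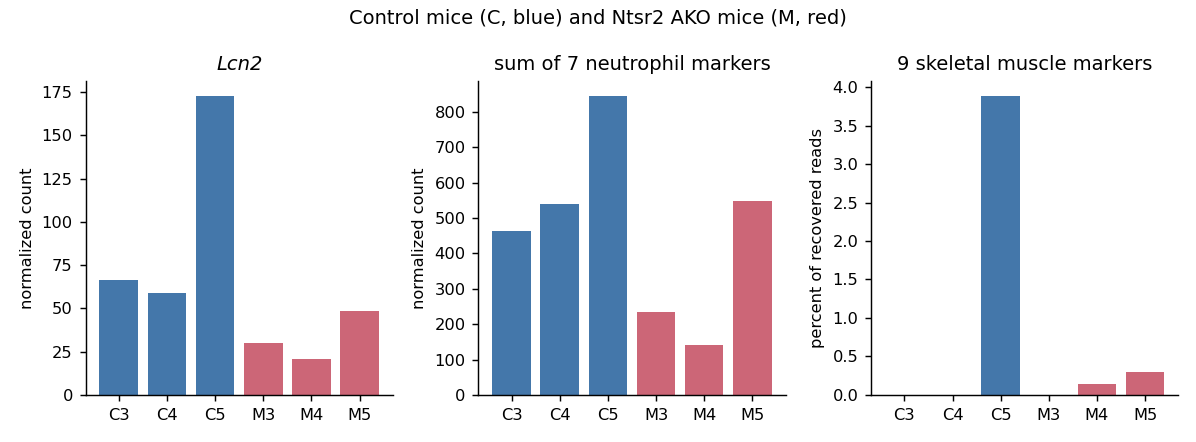
Bars from 0 for each control (C, blue) and Ntsr2 AKO (M, red) mouse: the normalized count of Lcn2, the summed normalized count of 7 neutrophil markers, and the percent of recovered reads in 9 skeletal muscle markers. Control 5 (C5) is highest in all panels, with 173 for Lcn2 and 3.88% for muscle markers.

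Compared per kilobase of exon, where genes can be set beside each other, the control means ran from Hsd11b1 (3887) through Tsc22d3 (3448), Zbtb16 (2592), Errfi1 (2314), Nr3c1 (1343), Sgk1 (1335) and Fkbp5 (1113) to Nr3c2 (69.3) and Lcn2 (37.8). In Ntsr2 AKO mice the mean of Zbtb16 (2238) was above that of Tsc22d3 (2150), and the mean of Errfi1 (836) came below those of Nr3c1 (1316), Sgk1 (964) and Fkbp5 (872). Among control mice the ranges of neighbours in this order overlapped, except for Fkbp5 and Nr3c2, which were separated by more than the spread of either.

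A second set of 30 genes that are widely used as glucocorticoid targets was examined beside the 9, and 29 of them could be tested. None passed the adjusted threshold by limma or edgeR, and DESeq2 called 2, Mt1 and Mt2, beside 1.36% of all genes tested. At an unadjusted p under 0.05, 7 of 29 were lower (Mt1, Mt2, Angptl4, Anxa1, Nfkbia, Cebpb and Map3k6) and 0 were higher, 22 of 29 lay on the lower side, and 7 of 29 were lower without overlap. Over all genes tested, 5.27% were lower and 3.08% higher at that p, 51.0% lay on the lower side and 8.16% were lower without overlap. The counts of the 29 at that p were 5 lower and 1 higher without Ntsr2 AKO 5, and 4 lower and 1 higher with quantile normalization. They were 4 lower and 0 higher without control 5, and 8 lower and 0 higher with the replicate block. The median log2 fold change was -0.38, beside -0.01 for all genes. Ntsr2 AKO 5 was the lowest mouse for 20 of the 29 (69.0%), where it was the lowest for 20.9% of all genes tested. Without Ntsr2 AKO 5 the median was -0.16 with 16 of 29 lower, and without the 3 mice with muscle transcripts it was -0.08 with 17 of 29 lower.

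The metallothionein genes Mt1 and Mt2, whose products bind zinc and copper and which respond to metals as well as to glucocorticoids, stood furthest apart. Mt1 was at 37027, 39825 and 72584 in control 3, 4 and 5 and at 16240, 10992 and 9141 in Ntsr2 AKO 3, 4 and 5 (log2 fold change -2.01, SE 0.32, adjusted p = 0.457, DESeq2 adjusted p = 9.65e-07). Mt2 was at 38574, 39805 and 86277 in the controls against at 15831, 4952 and 4419 in Ntsr2 AKO mice in the same order (log2 fold change -2.86, SE 0.55, adjusted p = 0.499, DESeq2 adjusted p = 1.12e-04). Control 5 was the highest mouse for both genes, and without it the log2 fold changes were -1.71 for Mt1 and -2.48 for Mt2. Without the 3 mice with muscle transcripts the log2 fold changes were smaller, at -1.24 for Mt1 and -1.31 for Mt2.

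Angptl4, a secreted inhibitor of lipoprotein lipase, was at 56625, 45018 and 44740 in control 3, 4 and 5 and at 39904, 30919 and 24355 in Ntsr2 AKO 3, 4 and 5 (log2 fold change -0.64, SE 0.22, adjusted p = 0.557), and its log2 fold change was -0.34 without the 3 mice with muscle transcripts. Map3k6, a stress-activated kinase, had a log2 fold change of -1.03 (SE 0.36, adjusted p = 0.565), which was -0.61 without Ntsr2 AKO 5 and -0.34 without the 3 mice with muscle transcripts. Other widely used readouts were nearer to zero or overlapped. Per1, a clock gene induced by the hormone, was at -0.33 (adjusted p = 0.811) and at 0.046 without Ntsr2 AKO 5. Klf9 was at -1.06 (adjusted p = 0.597), but at -0.12 without the 3 mice with muscle transcripts, and Pck1, which makes glycerol phosphate in adipocytes, at 0.62 with overlapping groups.

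**Figure D4:**
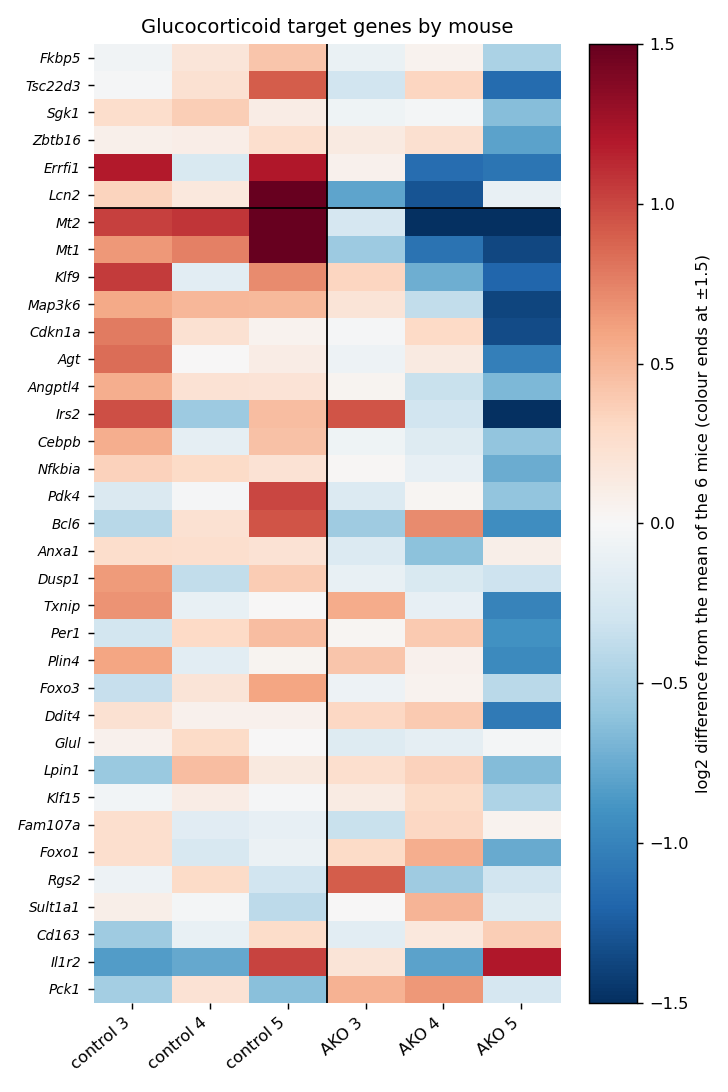
Log2 level of the 6 described targets (above the line) and 29 further glucocorticoid targets (below, in order of fold change) in each mouse, as the difference from the mean of the 6 mice (colour, ending at ±1.5). The column of Ntsr2 AKO 5 is the lowest for 20 of the 29 genes, and Mt1 and Mt2 are lower in all Ntsr2 AKO mice.

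Most of the chaperones that hold the receptor ready for hormone were lower in Ntsr2 AKO mice. Of 13 genes, 10 were lower at an unadjusted p under 0.05, 11 of 13 were lower without overlap, and the median log2 fold change was -0.75. Over all genes tested, 5.27% were lower at that p and 8.16% were lower without overlap. Of the 13 genes limma called 0, edgeR 0 and DESeq2 8, where DESeq2 called 1.36% of all genes tested. Hsp90aa1, the inducible HSP90 gene, was at 29167, 38034 and 35907 in control 3, 4 and 5 and at 17621, 17946 and 15080 in Ntsr2 AKO 3, 4 and 5 (log2 fold change -1.02, SE 0.15, adjusted p = 0.359, DESeq2 adjusted p = 1.01e-06). Stip1, which hands the receptor from HSP70 to HSP90, was at -0.75 (adjusted p = 0.499), Hspa8 at -0.97 (adjusted p = 0.519) and the stress-induced Hspa1b at -1.72 (adjusted p = 0.499). These are general chaperones that serve many client proteins. Ntsr2 AKO 5 was the lowest mouse for 8 of the 13 (61.5%), beside 20.9% of all genes tested and 69.0% of the 29 further targets. Without the 3 mice with muscle transcripts 11 of 13 were lower, 3 at an unadjusted p under 0.05, with a median of -0.53.

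Of 13 genes for cofactors that the receptor recruits, 12 were lower, 2 at an unadjusted p under 0.05, beside 51.0% and 5.27% of all genes tested. Their median was -0.23, which was -0.03 without Ntsr2 AKO 5 and 0.03 without the 3 mice with muscle transcripts. The chromatin remodelling ATPase Smarca4 was at -0.38 (adjusted p = 0.590) and at -0.11 without those 3 mice, while the mediator subunit Med14 was at -0.36 and the acetyltransferase Crebbp at -0.28 (adjusted p = 0.618 and 0.724). Among the genes of sex steroid receptors, the estrogen receptor gene Esr1 was at 0.02 (adjusted p = 0.978), with Pgr and Esr2 below the filter.

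Corticosterone follows the time of day, so the clock genes were examined too. Of 14 genes tested 10 were lower and 4 higher, with a median of -0.23, beside 51.0% lower over all genes tested. At an unadjusted p under 0.05 there was 1 gene, lower in Ntsr2 AKO mice, where 5.27% of all genes tested were lower. That gene was Nr1d1, which encodes the repressor REV-ERBalpha, at 4577, 5272 and 3843 in control 3, 4 and 5 and at 2905, 2583 and 2930 in Ntsr2 AKO 3, 4 and 5 (log2 fold change -0.69, SE 0.15, adjusted p = 0.499, DESeq2 adjusted p = 0.0111). Cry1, a repressor of the clock, was at -0.55 (adjusted p = 0.594), Bhlhe40, another repressor, at -1.18 (adjusted p = 0.600) and Per2 at -0.62 (adjusted p = 0.643), all with overlapping groups. Without the 3 mice with muscle transcripts 7 of the 14 genes were lower, with a median of -0.03, and Nr1d1 was at -0.76, Cry1 at -0.09, Bhlhe40 at -0.55 and Per2 at -0.49.

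**Figure D5:**
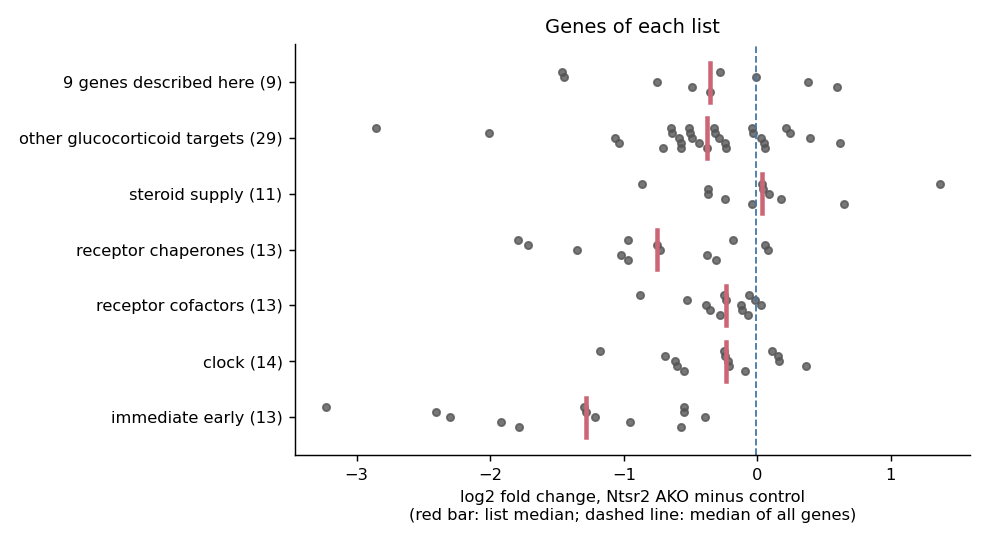
Log2 fold change (horizontal axis, Ntsr2 AKO minus control) of each gene tested, by list, with the list median (red bar) and the median of all genes (dashed line, -0.01). The 9 genes described here have a median of -0.36, the other targets -0.38, the receptor chaperones -0.75 and the immediate early genes -1.28.

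The genes whose levels followed Fkbp5 most closely over the 6 mice were Zfp46 (r = 0.993), H2afy (r = 0.990), Eif2s3x (r = 0.987) and Gm17477 (r = 0.985). Among those that followed Nr3c1 were Tgfbr3 (r = 0.988), Fuk (r = 0.986) and Usp30 (r = 0.978). Zfp46 ranged only from 720 to 947 normalized counts over the 6 mice, and Tgfbr3 from 6757 to 11992. These genes were picked for the highest r among the 16157 genes tested, over only 6 mice, so such high r and shared extreme mice follow from the choice. The 4 genes nearest to Fkbp5 had their highest level in control 5 and their lowest in Ntsr2 AKO 5, as Fkbp5 did. The 3 named for Nr3c1 were highest in control 3 and lowest in control 4, as Nr3c1 was.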

How the data were processed

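Poly(A) RNA from the adipose tissue of the 6 mice was sequenced by the authors. Reads were trimmed and aligned with HISAT2 and quantified with StringTie (build mm10), per the study's methods and the submitters' processing notes. The deposited signal values are gene counts that the authors divided by a size factor per library, and whole reads were recovered from their steps (100% of values whole within a tolerance of 0.1). The gene annotation is not given in the sources used here.

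The 16157 of 21456 genes whose normalized counts averaged 10 or more were tested with limma 3.58.1 in R 4.3.3, with a mean-variance trend, on log2(value + 1), with Benjamini-Hochberg adjustment over all genes tested and two-sided p-values. The alternatives were edgeR 4.0.16 and DESeq2 1.42.0 on recovered reads, quantile normalization, pseudocounts of 0.1 and 5, other filters, no trend, a replicate block and leaving out each mouse. The steps were tested on simulated data. The receptor ratio was tested by exact permutation. Levels per kilobase used exon lengths of GENCODE M21 (GRCm38, the same build as mm10), which also gave gene positions. Promoters came from RefSeq.

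The named genes were the 9 members, Ntsr2, the 4 tested genes with the smallest p of each pathway list, and the 4 genes most like Fkbp5 and Nr3c1 by Pearson r. A few genes that this rule names are not reported here. A few others were named after their values were seen: Anxa1, Nfkbia, Cebpb, Per1, Klf9, Pck1 and S100a8. The members, lists and rules were chosen with earlier results of these data known.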

Additional observations from a re-analysis of the deposited data

How the results depend on the processing

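The number of genes called by limma was 1 of 16157. It was 0 with edgeR, without the low-count filter, without the trend, with the replicate block and without the mice with muscle transcripts, 0 in each of the fits that left out one mouse, and 219 with DESeq2. edgeR gave 792 lower and 531 higher genes at an unadjusted p under 0.05. Of the 9 genes 0 were called in any of these fits. The number at an unadjusted p under 0.05 was 3, and 1 to 3 over the fits that left out one mouse. It was 1 without Ntsr2 AKO 5 (Lcn2), 1 without control 5 (Sgk1), 2 with quantile normalization (Errfi1 and Lcn2) and 0 without the mice with muscle transcripts. The genes so counted differed between the fits that left out one mouse, and not all were lower in Ntsr2 AKO mice. They were Nr3c2 (higher, 1.01) and Lcn2 without control 3, and Hsd11b1 (higher, 0.78), Errfi1 and Lcn2 without control 4. They were Sgk1 and Errfi1 without Ntsr2 AKO 3, and Tsc22d3 and Sgk1 without Ntsr2 AKO 4. The Nr3c1 to Nr3c2 log2 ratio difference ranged from -0.83 to -0.38. Deviations from the group means went together for the mice numbered 3 and 5 but not for number 4 (r across genes 0.45, 0.41 and -0.24), so the numbers were not used as pairs. With the replicate block 0 genes were called, 866 lower and 437 higher genes had an unadjusted p under 0.05, 3 of the 9 genes among them, and the receptor ratio gave a sign-flip p of 0.25, the smallest possible with 3 pairs. Of 144 log2 fold changes of the 9 genes over 16 settings, 138 kept their direction and 6 changed sign. The other filters, no trend and the replicate block left the log2 fold changes of the 9 genes as they were, so part of the 138 was fixed in advance. None of the 9 genes was called in any fit, so the side of the threshold did not vary. With quantile normalization Nr3c1 was at 0.10 and Eif2s3x, which was at -0.12, at 0.0028. Without the mice with muscle transcripts Nr3c1 was at 0.18, Zbtb16 at 0.051, Crebbp at 0.045 and Esr1 at -0.029. Over the fits that left out one mouse, the log2 fold change ranged from -0.18 to 0.18 for Nr3c1 (positive without Ntsr2 AKO 4 and without control 3), from -0.47 to 0.051 for Zbtb16 (positive without Ntsr2 AKO 5), from -0.14 to 0.16 for Esr1, from -0.16 to 0.25 for Tgfbr3, from -0.16 to 0.23 for Fuk and from -0.066 to 0.11 for Usp30. The cause of these changes was not tested. Depth limits genes with low counts, such as Ntsr2, Lcn2, Hsd11b2, S100a8 and Gm17477.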
